A study of Mus musculus with 96 samples.

Results

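The question here was how the surgery effect on microglia of the old mouse hippocampus differed between 48 h and 6 h after an abdominal operation. For each gene the log2 difference between old surgery and old control animals at 48 h was taken, and the same difference at 6 h was subtracted from it. A value of 0 means an equal surgery effect at both times. A negative value means a surgery effect that was lower, or more negative, at 48 h. Of the 96 libraries of the series, 32 enter this contrast: 9 from old surgery animals at 48 h, 8 from old control animals at 48 h, 7 from old surgery animals at 6 h and 8 from old control animals at 6 h. All were wild-type (WT) mice aged 20 to 22 months. The labels call the comparison animals controls and do not say what they underwent, nor do they give strain or sex. Each library held RNA of 1000 sorted Ly6C-, CD11b+ and Fcrls+ cells, and was sequenced by Smart-seq2, which reads whole transcripts from small amounts of RNA. Each of the 32 old animals has its own sort number, which also gave a hemisphere library. Whether tissue of several animals was pooled is not stated.

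Microglia are the resident macrophages of the brain. They hold a homeostatic programme that includes the purinergic receptor P2ry12, the fractalkine receptor Cx3cr1 and the surface protein Tmem119, and they lower parts of it when they react to inflammation or injury. Surgery raises circulating glucocorticoids in mammals. These hormones bind the glucocorticoid receptor, which enters the nucleus and switches on a set of feedback genes within hours, among them the receptor co-chaperone Fkbp5 and the leucine zipper protein Tsc22d3, while it dampens NF-kB-dependent transcription. Fkbp5 in turn lowers the receptor's affinity for the hormone.

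The 32 libraries held 2281760 to 3635847 counts, with a median of 2775443, and between 53.05% and 79.8% of them fell on the 15 largest gene models. That left 513243 to 1406165 counts per library for all other genes, so levels are given below as counts scaled to a normalised library total of 1000000 (CPM) and are low for most genes. In 2 of the 32, replicates 5 and 6 of old surgery at 6 h, the low counts did not run 1, 2, 3 as in the others. There 5.02% and 24.7% of the values from 1 to 3 were 1, against at least 42.7% in the rest of the 32. Among the young hippocampal libraries, replicates 1 and 4 of control at 6 h had the same unevenness, with 4.11% and 9.93%. The summed level of 20 homeostatic microglia genes was 13720 to 19400 CPM after surgery at 48 h, 11640 to 21290 CPM in controls at 48 h, 7748 to 15490 CPM after surgery at 6 h and 10940 to 17710 CPM in controls at 6 h. All 20 were detected in every group, so the libraries carry the markers of the labelled cell type. The 48 h and 6 h libraries came from separate tables, and their sort numbers do not overlap, so time, table and sort period cannot be told apart in any level difference between the times.

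No gene passed the test of the contrast. Of 14510 genes tested with edgeR's quasi-likelihood test, 0 had a Benjamini-Hochberg adjusted p below 0.05 (0%), and the lowest adjusted p was 0.102. At an unadjusted p below 0.05 there were 1015 genes (7%), of which 522 (3.6%) were positive and 493 (3.4%) negative. DESeq2 on the same counts called 8 genes, Tsc22d3, Fkbp5 and Ppp1r21 with negative and Cyb561a3, Cltc, Il6st, Kdm4b and Ribc1 with positive values, and limma-voom called Cyb561a3. With the 4 old groups fitted without the young libraries, edgeR called 5: Fkbp5, Ppp1r21, Cyb561a3, Cltc and Il6st. Without replicate 6 of old surgery at 6 h it called 1, Cyb561a3. The values below are therefore sizes with errors, not calls, wherever they refer to the contrast.

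The surgery effects at each time, from which the contrast is made, were also tested on their own. At 48 h, 0 of 14510 genes passed (0%), with 451 at an unadjusted p below 0.05 (3.11%), and DESeq2 and limma-voom also called 0. At 6 h, 31 genes passed (0.214%), 21 higher after surgery (0.145%) and 10 lower (0.0689%). That count was 113 with DESeq2 and 51 with limma-voom. It was 17 without the 4 hippocampal libraries with uneven low counts, which include replicates 1 and 4 of the young controls at 6 h. It was 16 without replicate 8 of the 6 h controls, 18 without replicate 4, 16 without replicate 5 and 52 without replicate 7 of old surgery at 6 h. The 31 genes share the 6 h libraries with the contrast and were chosen by their 6 h effect, so only their 48 h effect is independent of that choice.

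Fkbp5, Tsc22d3 and Ddit4, which the glucocorticoid receptor is known to switch on, were higher after surgery at 6 h, and their 48 h surgery libraries overlapped with the 48 h controls. Fkbp5, the receptor's co-chaperone, had a lowest, median and highest level of 11.1, 16.1 and 26.7 CPM after surgery at 48 h, against 8.81, 12.5 and 19.3 CPM in controls at 48 h. At 6 h it had 39.5, 53.1 and 66.5 CPM after surgery, against 3.99, 12.2 and 17.2 CPM in controls. The 7 surgery libraries at 6 h were all above every other old library, while at 48 h the ranges overlapped and 3 of 9 surgery libraries were above the highest control. The surgery effect on the log2 scale was 0.41 at 48 h (95% interval −0.10 to 0.92) and 2.05 ± 0.26 (SE) at 6 h, or 1.33-fold and 4.15-fold. The contrast for Fkbp5 was −1.64 ± 0.36 (edgeR, Benjamini-Hochberg adjusted p = 0.104, 9, 8, 7 and 8 libraries), and it stayed between −1.74 and −1.503 when any 1 of the 32 libraries was left out.

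Tsc22d3, a leucine zipper protein through which glucocorticoids restrain NF-kB and AP-1, ranged more widely at 48 h. It had 11.7, 40.7 and 83.1 CPM after surgery at 48 h, 35.2, 43.5 and 85.1 CPM in controls at 48 h, 50.1, 74.5 and 108 CPM after surgery at 6 h and 13.4, 25.9 and 38.5 CPM in controls at 6 h. At 6 h the surgery libraries were all above the controls. At 48 h none was above the highest control and 3 of 9 were below the lowest. The contrast was −1.66 ± 0.36 (edgeR, adjusted p = 0.104), from an effect of −0.10 at 48 h (95% interval −0.59 to 0.38) and 1.56 ± 0.26 at 6 h. Part of the difference lay in the controls: their Tsc22d3 level at 48 h over that at 6 h was 0.97 on the log2 scale (edgeR, adjusted p = 0.115), and that of surgery animals was −0.70 (adjusted p = 0.0582).

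Ddit4, an inhibitor of mTORC1 that glucocorticoids and low oxygen induce, was close to undetected outside the 6 h surgery group. The 9 surgery libraries at 48 h held 0 to 2.97 CPM and 22 counts in sum, the 8 controls at 48 h held 0 to 1.01 CPM and 7 counts, the 7 surgery libraries at 6 h held 5.54 to 14.9 CPM and 272 counts, and the 8 controls at 6 h held 0 to 1.94 CPM and 15 counts. All 7 surgery libraries at 6 h were above every other old library. At 48 h, 4 of 9 surgery libraries were above the highest control. Its effect was 1.39 at 48 h (95% interval −0.16 to 2.93) and 3.998 ± 0.58 at 6 h, and the contrast was −2.61 ± 1.13 (edgeR, adjusted p = 0.661). Zbtb16, a zinc finger repressor, held 3 and 4 counts in all surgery and control libraries at 48 h, too few for a fold change there, and 81 and 6 at 6 h.

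Per1, a repressor of the circadian clock that glucocorticoids also induce, had overlapping ranges at both times. It had 20.2, 48.96 and 93.3 CPM after surgery at 48 h, 20.5, 31.4 and 52.7 CPM in controls at 48 h, 27.4, 46.8 and 80.04 CPM after surgery at 6 h and 20.1, 24.2 and 38.8 CPM in controls at 6 h. In each pair of groups the surgery median was the higher, and the contrast was −0.36 (95% interval −1.12 to 0.40). Sgk1, a kinase of the same hormone response, had an effect of −0.14 at 48 h and −0.01 at 6 h. Of the 22 genes on the list of glucocorticoid-induced genes, 16 had enough counts, Klf9 not among them. Of these 0 passed the contrast, 13 were negative and 3 positive, where 51.7% of all genes tested were negative and 48.3% positive, and the median was −0.34, against −0.02 over all genes tested. The list's median surgery effect was −0.06 at 48 h and 0.23 at 6 h, where 4 members passed as higher (Fkbp5, Tsc22d3, Ddit4 and Zbtb16), against 0.145% of all genes tested. The list was drawn up with earlier results of these data known and is not independent evidence of its direction.

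**Figure D1:**
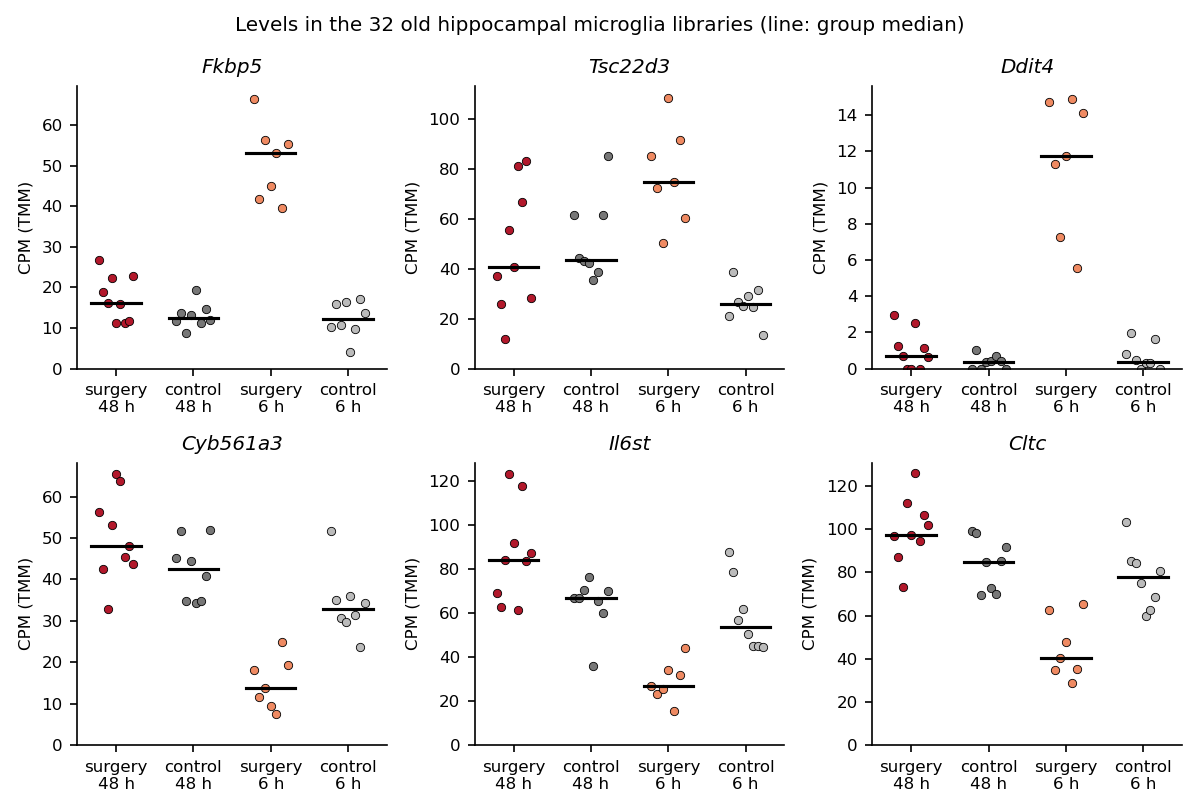
Level of 6 genes in each of the 32 old hippocampal libraries, in CPM on linear axes that start at 0, with 1 point per library and a line at the group median. For Fkbp5, Tsc22d3 and Ddit4 the 7 surgery libraries at 6 h lie above the 8 controls at 6 h. All 7 lie below the lowest 6 h control for Il6st, 6 of 7 for Cyb561a3 and 5 of 7 for Cltc, while the 48 h groups overlap in all 6 panels.

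Promoters of Fkbp5 and Tsc22d3 are shown because these are the best known receptor targets among the genes called at 6 h. Each has a RefSeq start whose window holds one of the motifs searched, and any start without a motif is not shown. The sequences run 5′ to 3′ on the minus strand, from 250 bases before to 50 bases after a RefSeq transcription start, in build GRCm38.p6, and the capitals mark the motif.
Fkbp5, chr17:28486100-28486399: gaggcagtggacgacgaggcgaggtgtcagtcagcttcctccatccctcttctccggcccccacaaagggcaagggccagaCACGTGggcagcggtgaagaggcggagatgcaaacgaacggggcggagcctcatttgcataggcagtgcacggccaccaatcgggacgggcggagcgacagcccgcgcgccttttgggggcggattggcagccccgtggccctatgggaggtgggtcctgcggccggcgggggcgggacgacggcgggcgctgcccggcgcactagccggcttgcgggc
Tsc22d3, chrX:140600473-140600772: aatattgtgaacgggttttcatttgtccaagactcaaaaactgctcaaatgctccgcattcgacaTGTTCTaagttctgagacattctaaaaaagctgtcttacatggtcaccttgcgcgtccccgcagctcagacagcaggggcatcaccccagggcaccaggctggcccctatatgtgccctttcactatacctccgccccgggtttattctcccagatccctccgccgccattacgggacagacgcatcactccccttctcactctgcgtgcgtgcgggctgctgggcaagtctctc
In Fkbp5 the capitals are an E-box, CACGTG, which begins 169 bases before the start, and in Tsc22d3 a half-site of the receptor's element, TGTTCT, which begins 185 bases before it. No Fkbp5 promoter searched held the half-site. RefSeq gave 30 promoters for 23 of the 31 genes called at 6 h. The half-site, AGAACA or TGTTCT on either strand, was in 4 of them (13.3%), against 19.0% of 32851 mouse promoters of the same length. The E-box was in 3 (10%), against 7.15%, and the receptor's full element, both half-sites facing each other across 3 free bases, in 0, against 0.00913%. These genes were chosen for the search after their values were seen, because no gene passed the contrast, and a match is a description of letters in this window.

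Ppp1r21 and Ccnd3 were also higher after surgery at 6 h. Ppp1r21, a subunit of an endosomal RNA-binding complex, had 8.33, 16.8 and 21.6 CPM after surgery at 48 h, 10.6, 16.4 and 19.1 CPM in controls at 48 h, 33.6, 41.2 and 63.5 CPM after surgery at 6 h and 6.99, 16.2 and 21.4 CPM in controls at 6 h. Its 7 surgery libraries at 6 h were all above every other old library, and at 48 h the groups overlapped almost fully. The effect was 0.08 at 48 h (95% interval −0.38 to 0.53) and 1.52 ± 0.23 at 6 h, with a contrast of −1.45 ± 0.32 (edgeR, adjusted p = 0.107). Ccnd3, a D-type cyclin of the G1 phase, had 27.1, 32.1 and 54.9 CPM after surgery at 48 h, 21.4, 32.5 and 53.7 CPM in controls at 48 h, 48.8, 65.9 and 85.6 CPM after surgery at 6 h and 19.1, 33.2 and 40.8 CPM in controls at 6 h. The groups were apart at 6 h and overlapped at 48 h, with a contrast of −1.03 ± 0.28 (adjusted p = 0.397).

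Rcan1, an inhibitor of the phosphatase calcineurin, had a contrast of −1.42 ± 0.40 (edgeR, adjusted p = 0.397) and an effect of −0.07 at 48 h. Nuak2, a kinase related to AMPK, had −1.21 ± 0.40, and its control level at 48 h over that at 6 h was 0.73 on the log2 scale (adjusted p = 0.385). Mlph, which links Rab27a vesicles to myosin, had −0.71 ± 0.24, with an effect of 0.32 at 48 h (95% interval −0.01 to 0.65). Tagap, a GTPase-activating protein of immune cells, had −0.93 ± 0.29, and Sult1a1, a phenol sulfotransferase, −0.72 ± 0.27. B4galt1, a galactosyltransferase, Glul, the glutamine synthetase, and Dst, a cytoskeletal linker, had contrasts of −0.83 ± 0.24, −0.72 ± 0.22 and −0.71 ± 0.28, each with its 6 h surgery libraries all above the 6 h controls. Of the genes at lower counts, the cation channel gene Trpv4 had −1.24 ± 0.58, the kinase gene Abl2 −1.32 ± 0.49 and the zinc finger gene Zbed4 −2.15 ± 0.59.

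Of the 21, 4 are gene models without a gene name, Gm16344, Gm10392, AC154912.1 and AC154912.3. AC154912.1, on the plus strand of chromosome 17 from 28446500 to 28456457, and AC154912.3, on the minus strand from 28457484 to 28461095, both lie within Fkbp5, which covers 28399094 to 28517527 on the minus strand (GENCODE vM21, GRCm38). AC154912.3 is on the same strand as Fkbp5, so strand would not separate their reads. For AC154912.1 the sources used here do not say whether counting used strand, so its reads and those of Fkbp5 cannot be told apart. AC154912.1 and AC154912.3 are therefore not taken as further genes beyond Fkbp5, and whether they are separate transcripts was not tested. Gm16344 overlaps Myo7b and Gm10392 overlaps Abhd15, each on the opposite strand. Tagap, one of the named genes, is overlapped on the opposite strand by E430024P14Rik over its whole length, from 7926000 to 7934897.

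Cyb561a3, Il6st and Cltc were among the 10 genes lower after surgery at 6 h, and their 48 h surgery libraries overlapped with controls. Cyb561a3, a ferric reductase of late endosomes and lysosomes, had 32.9, 48.0 and 65.4 CPM after surgery at 48 h, 34.4, 42.6 and 51.9 CPM in controls at 48 h, 7.53, 13.9 and 24.9 CPM after surgery at 6 h and 23.7, 32.9 and 51.8 CPM in controls at 6 h. At 6 h, 6 of 7 surgery libraries were below the lowest control, and at 48 h, 4 of 9 were above the highest control and 1 below the lowest. Its contrast of 1.45 ± 0.30 had the lowest adjusted p of all genes tested (edgeR, 0.102), from an effect of 0.25 at 48 h (95% interval −0.15 to 0.64) and −1.20 ± 0.22 at 6 h.

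Il6st encodes gp130, the signalling receptor shared by interleukin-6 and its relatives. It had 61.2, 84.04 and 123 CPM after surgery at 48 h, 36.1, 66.9 and 76.3 CPM in controls at 48 h, 15.6, 26.9 and 44.1 CPM after surgery at 6 h and 44.7, 53.6 and 87.9 CPM in controls at 6 h. All 7 surgery libraries at 6 h were below the lowest 6 h control, and at 48 h 6 of 9 were above the highest control. The effect was 0.44 at 48 h (95% interval −0.005 to 0.88, unadjusted p = 0.0528) and −1.03 ± 0.24 at 6 h, and the contrast was 1.47 ± 0.33 (edgeR, adjusted p = 0.104). Cltc, the clathrin heavy chain, had 73.1, 97.3 and 126 CPM after surgery at 48 h, 69.4, 84.96 and 99.4 CPM in controls at 48 h, 28.6, 40.1 and 65.5 CPM after surgery at 6 h and 59.8, 77.9 and 104 CPM in controls at 6 h. At 6 h, 5 of 7 surgery libraries were below all controls, at 48 h 4 of 9 were above all controls, and the contrast was 1.04 ± 0.23 (edgeR, adjusted p = 0.104).

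Cd83, a surface glycoprotein of activated immune cells, and Cd180, a Toll-like receptor relative, had contrasts of 1.03 ± 0.28 and 0.88 ± 0.25. Slc17a5, the sialic acid exporter of lysosomes, had 1.03 ± 0.27 (edgeR, adjusted p = 0.349). Lpcat1, an acyltransferase of phosphatidylcholine remodelling, had 0.71 ± 0.26, the lipogenic regulator Thrsp 0.74 ± 0.24 and the secreted protease gene Adamts16 1.498 ± 0.42. Polr2a, the largest subunit of RNA polymerase II, was the exception at 48 h. It had 9.99, 13.9 and 20.8 CPM after surgery at 48 h, 11.3, 16.9 and 38.5 CPM in controls at 48 h, 8.66, 10.9 and 12.95 CPM after surgery at 6 h and 12.1, 21.6 and 38.9 CPM in controls at 6 h. Its effect was −0.48 at 48 h (95% interval −0.95 to −0.02, unadjusted p = 0.0427) and −1.09 ± 0.25 at 6 h, and the contrast was 0.61 ± 0.34.

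Over the 21 genes higher at 6 h, the median surgery effect was 0.10 at 48 h and 1.35 at 6 h. At 48 h, 15 were positive and 6 negative, where 49.8% of all genes tested were positive and 50.2% negative, 0 passed against a background of 0%, and all 21 of the 95% intervals held 0. The 48 h effects ran up to 1.39 (Ddit4) and down to −0.29 (Zbed4), leaving out Zbtb16 with its few counts. The groups did not overlap for 12 of the 21 at 6 h (0.0896% of all genes tested), which follows from how the genes were chosen, and for 0 at 48 h (0%). Over the 10 genes lower at 6 h, the median was 0.07 at 48 h and −0.88 at 6 h. At 48 h, 6 were positive and 4 negative, and 9 of the 10 intervals held 0. An interval that holds 0 does not show that no effect was left: for Fkbp5 it reaches 0.92 and for Trpv4 1.44.

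**Figure D2:**
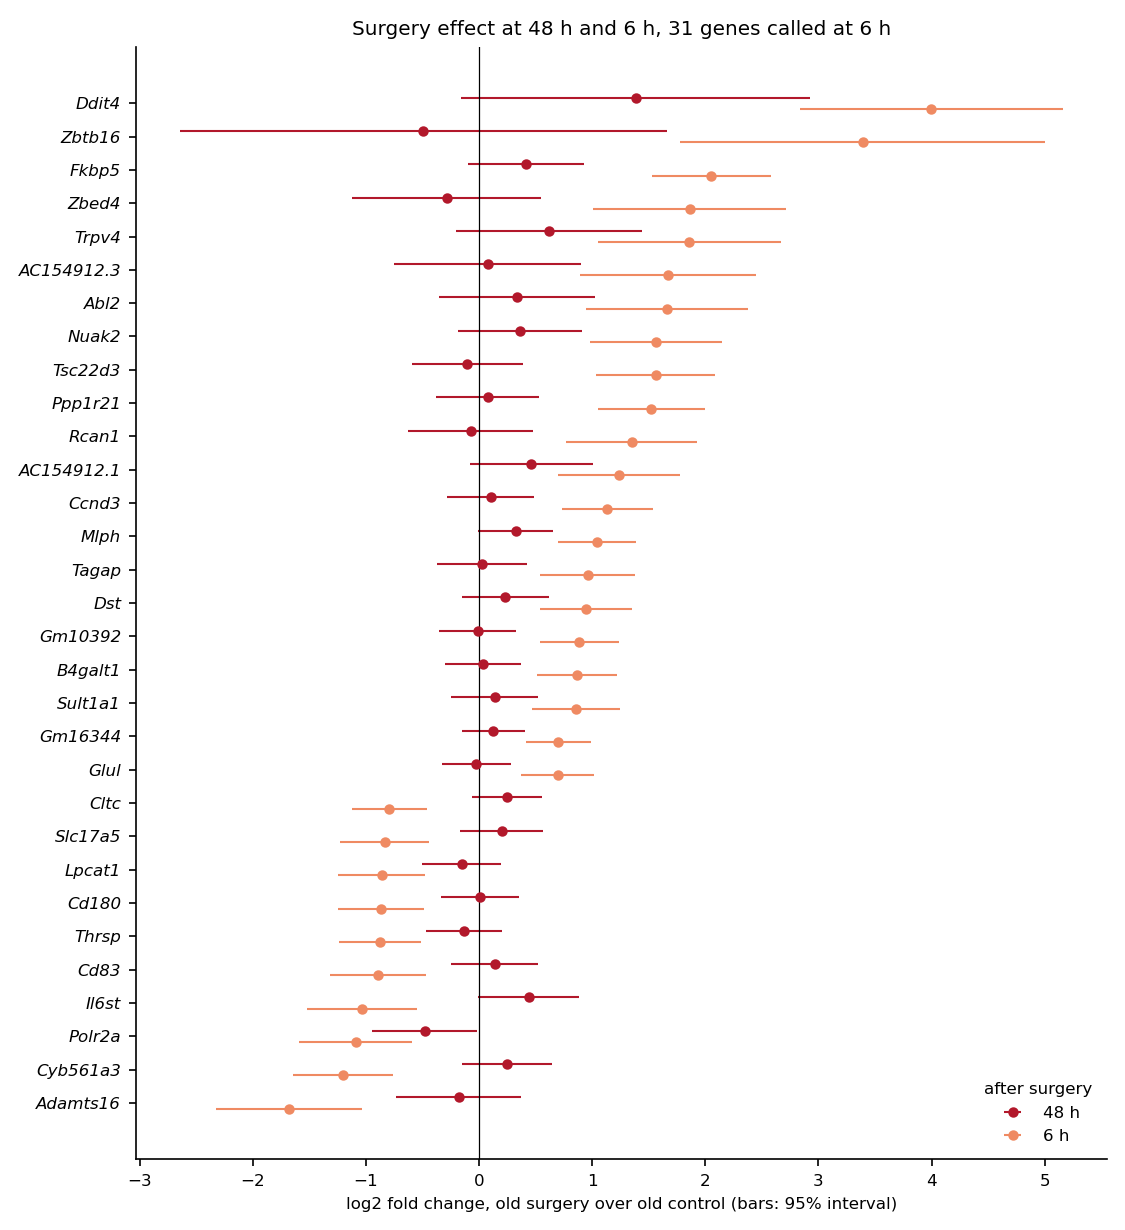
Surgery effect, as log2 fold change of old surgery over old control with its 95% interval, at 48 h and at 6 h for the 31 genes called at 6 h, ordered by the 6 h value. The 48 h values have medians of 0.10 for the 21 genes that were higher and 0.07 for the 10 that were lower at 6 h. The 6 h values chose the genes. The 48 h value of Zbtb16 rests on 3 and 4 counts.

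A few genes had small p-values in the contrast without a called 6 h effect, with surgery effects of opposite sign at the 2 times. Bmpr1a, a type I receptor for bone morphogenetic proteins, had 2.50, 4.44 and 9.57 CPM after surgery at 48 h, 1.23, 2.08 and 4.57 CPM in controls at 48 h, 0.842, 2.59 and 4.28 CPM after surgery at 6 h and 2.35, 4.56 and 10.04 CPM in controls at 6 h. All groups overlapped. Its effect was 1.08 at 48 h and −0.82 at 6 h, for a contrast of 1.90 ± 0.44 (edgeR, adjusted p = 0.152). Nudt13, a mitochondrial nudix hydrolase, had 1.79 ± 0.46 (adjusted p = 0.349). Kdm4b, a histone H3 lysine demethylase, had 3.24 ± 0.77 (adjusted p = 0.181), but 1 library in each of 2 groups stood far above the rest: 55.9 CPM in a surgery library at 48 h, with 16.2 CPM in the next, and 58.8 CPM in a control at 6 h, with 11.3 CPM in the next.

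Genes of the homeostatic microglia programme had mostly positive contrasts. Of 20 tested, 0 passed the contrast, 19 were positive (48.3% of all genes tested), and 5 were positive at an unadjusted p below 0.05 (3.6%), Cx3cr1, P2ry13 and Olfml3 among them. The median was 0.30, against −0.02 over all genes tested, with median surgery effects of 0.03 at 48 h and −0.23 at 6 h. Olfml3, an extracellular matrix protein, had 356.7, 501 and 555 CPM after surgery at 48 h, 290.1, 463 and 554 CPM in controls at 48 h, 120.2, 220.4 and 327 CPM after surgery at 6 h and 277, 336 and 455 CPM in controls at 6 h. At 6 h, 5 of 7 surgery libraries were below all controls, and at 48 h the groups overlapped. Its contrast was 0.73 ± 0.24 (edgeR, adjusted p = 0.458). Cx3cr1 had 0.54 ± 0.23, the purinergic receptor genes P2ry12 and P2ry13 0.40 ± 0.21 and 0.65 ± 0.27, and Tmem119 0.09 ± 0.20. Fewer cells in the homeostatic state and less of their RNA per cell cannot be told apart in these bulk libraries.

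Lysosomal and phagocytic genes had a median contrast of 0.30, with 20 of 21 positive (48.3% of all genes tested) and 1 positive at an unadjusted p below 0.05, a share near that of all genes tested (3.6%). Disease-associated microglia genes, a set first described around amyloid plaques, had 0.36 with 16 of 20 positive, led by the phagocytic receptor gene Clec7a (1.94 ± 0.62), the cystatin gene Cst7 (1.84 ± 0.59) and the integrin gene Itgax (1.63 ± 0.64). Clec7a had 2.29, 7.91 and 12.9 CPM after surgery at 48 h, 0.507, 6.41 and 7.38 CPM in controls at 48 h, 0.734, 3.42 and 11.8 CPM after surgery at 6 h and 2.72, 10.7 and 29.6 CPM in controls at 6 h. The ranges overlapped at both times. Apoe, the lipid carrier of the set, had 0.84 ± 0.43. Part of these contrasts lay in the controls. Their level at 48 h over that at 6 h was −0.94 for Apoe, −1.15 for Clec7a, −1.21 for Cst7 and −0.78 for Itgax. After surgery it was −0.10, 0.79, 0.63 and 0.85, and none of these was called in either arm. The disease-associated list had medians of −0.18 in controls and 0.25 after surgery for 48 h over 6 h. None of these lists had a member that passed the contrast.

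Antigen presentation genes had a median of 0.31 with 15 of 18 positive (48.3% of all genes tested). The 3 negative members belong to class II presentation: H2-Eb1 (−0.20), Cd74 (−0.16) and Ciita (−1.33). Their class II relatives H2-Aa and H2-Ab1 had 0.25 and 0.26. The class I gene H2-K1 had 0.68 ± 0.30, the peptide transporter gene Tap2 0.90 ± 0.31 and the immunoproteasome gene Psmb9 1.08 ± 0.32 (edgeR, adjusted p = 0.440). Interferon-stimulated genes had a median of 0.62, with 15 of 18 positive (48.3% of all genes tested). Their surgery effect had a median of 0.26 at 48 h and −0.40 at 6 h, and Ifit3, Ifi27l2a and Ifitm3 had contrasts of 2.01, 1.71 and 1.36 at low counts. In the controls alone the list's median of 48 h over 6 h was −0.54, with 0 members called.

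Genes of NF-kB signalling and cytokines had a median contrast of 0.15, 14 of 21 positive (48.3% of all genes tested), with surgery effects of −0.12 at 48 h and −0.31 at 6 h. Nfkb2, a precursor subunit of the non-canonical pathway, had 4.80, 11.2 and 16.3 CPM after surgery at 48 h, 7.38, 12.8 and 16.6 CPM in controls at 48 h, 2.52, 3.81 and 7.84 CPM after surgery at 6 h and 5.44, 8.33 and 14.9 CPM in controls at 6 h. At 6 h, 5 of 7 surgery libraries were below all controls and at 48 h the groups overlapped, with a contrast of 0.88 ± 0.37. Its partner Relb had 0.68 ± 0.42, the inhibitor gene Nfkbie 0.88 ± 0.38 and the cytokine gene Tnf 0.74 ± 0.53 (edgeR, adjusted p = 0.782). Il1b had too few counts to be tested. Among acute-phase genes Saa3, a serum amyloid A, had a negative contrast, −1.10 ± 0.42 from an effect of 0.03 at 48 h and 1.13 at 6 h. The phosphoinositide 3-kinase inhibitor gene Pik3ip1 had −1.23 ± 0.64 and the pro-apoptotic gene Bmf 0.47 ± 0.63. The STAT3 feedback inhibitor Socs3 had −0.47 ± 0.43 and the cell cycle inhibitor Cdkn1a 0.44 ± 0.39.

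**Figure D3:**
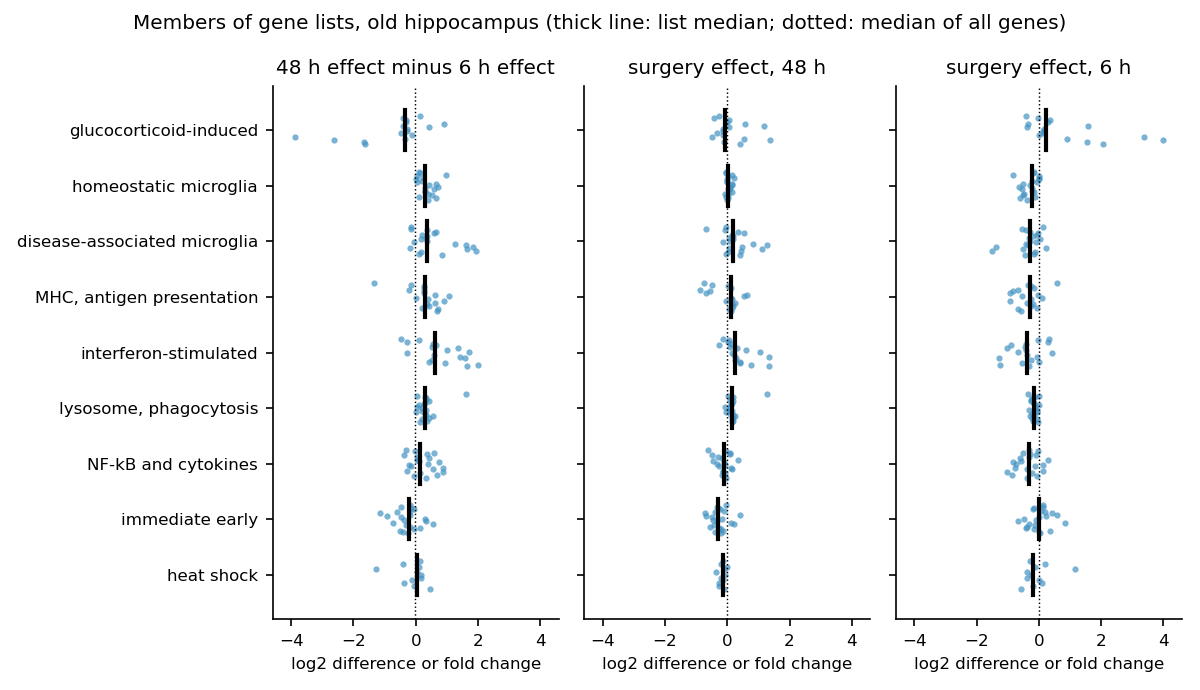
Log2 values of the tested members of 9 gene lists: the surgery effect at 48 h minus that at 6 h, and the effect at 48 h and at 6 h on their own, with a thick line at the list median and a dotted line at the median of all 14510 genes. At 48 h the medians lie between −0.29 and 0.26, and in the contrast the glucocorticoid-induced list lies at −0.34 and the interferon-stimulated list at 0.62. The panels share libraries and are not separate evidence.

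The summed levels of 4 marker lists of other cell types had shifted but overlapping ranges in the 6 h groups. The 8 border macrophage markers summed to 123 to 211 CPM after surgery at 48 h, 120.1 to 250.6 CPM in controls at 48 h, 231 to 417 CPM after surgery at 6 h and 122 to 279 CPM in controls at 6 h. Nearly all of it was Stab1, with a contrast of −0.68 ± 0.23 and a surgery effect of 0.63 at 6 h. Of the 4 markers tested, the other 3 went the opposite way at 6 h at low counts. Mrc1, F13a1 and Ms4a7 had effects of −0.91, −0.23 and −1.03, and Lyve1 was at 0 after surgery at 6 h. The 7 astrocyte markers summed to 29.5 to 72.03 CPM after surgery at 48 h, 33.1 to 71.9 CPM in controls at 48 h, 75.3 to 152 CPM after surgery at 6 h and 32.1 to 86.4 CPM in controls at 6 h, with Slc1a3 at −0.61 ± 0.27. Neutrophil markers, almost entirely Csf3r, which microglia also express, summed to 108 to 236 CPM after surgery at 48 h, 105.5 to 223.5 CPM in controls at 48 h, 31.8 to 112 CPM after surgery at 6 h and 104 to 204 CPM in controls at 6 h, with Csf3r at 0.84 ± 0.31 and S100a9 at 0 in controls at 48 h and after surgery at 6 h. B cell markers summed to 40.7 to 99.3 CPM after surgery at 6 h, against 94.4 to 128 CPM in controls at 6 h, and 80.3 to 115.1 CPM after surgery at 48 h, against 83.2 to 115.5 CPM in controls at 48 h. Most of that sum was Ighm, with a surgery effect of −0.61 at 6 h. The other tested B cell genes, Ms4a1 and Cd79b, had 0.04 and −0.18 at 6 h. The sums of the other 9 marker lists also overlapped between surgery and control at both times. The 6 choroid plexus markers reached 1346 CPM in a surgery library at 48 h, 517 CPM in a control at 48 h, 879 CPM in a surgery library at 6 h and 486 CPM in a control at 6 h. The part of these markers in the contrast was not tested.

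The levels at 48 h and at 6 h were also compared within each arm, where the sort periods cannot be told apart from time. Old surgery libraries differed in 1629 genes of 14510 (11.2%), 726 higher at 48 h (5%) and 903 lower (6.22%), and old controls in 13 (0.0896%), 10 higher (0.0689%) and 3 lower (0.0207%). The surgery count was 354 without the 4 hippocampal libraries with uneven low counts and 819 without replicate 5 of old surgery at 6 h. It was 24 with a further term for the sort span, that is, sort numbers inside or outside the young range of that time. The control count was between 4 and 19 when 1 library was left out. It was 4 without replicate 7 or 8 of the controls at 48 h or replicate 8 of the controls at 6 h, and 5 without replicate 1 of the controls at 6 h. It was 7 or 8 without control replicates 1 and 6 at 48 h or 4 and 5 at 6 h, surgery replicates 4, 6 and 9 at 48 h, or surgery replicates 1, 3, 4 and 6 at 6 h. Whether the arms differed is what the contrast tests, and there no gene passed.

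Of the chaperone genes, Hspa8, Hspa5 and Dnajb1 were higher at 48 h in both arms (edgeR, called in each). Hspa8, the constitutive heat shock protein of the Hsp70 family, had 283, 406 and 587 CPM after surgery at 48 h, 377, 501 and 674 CPM in controls at 48 h, 103, 152 and 237 CPM after surgery at 6 h and 123, 190.2 and 240.2 CPM in controls at 6 h. Every 48 h library was above every 6 h library. The level at 48 h over that at 6 h was 1.35 ± 0.18 on the log2 scale after surgery and 1.41 ± 0.17 in controls (edgeR, both called), and the contrast was −0.06 with a 95% interval of −0.54 to 0.43. Hspa5, the chaperone of the endoplasmic reticulum, was higher at 48 h by 1.21 ± 0.21 after surgery and 1.24 ± 0.21 in controls, and Dnajb1, an Hsp40 co-chaperone, by 1.58 ± 0.28 and 1.41 ± 0.27. Of 11 heat shock genes, 5 were called higher at 48 h after surgery (5% of all genes tested) and 2 in controls (0.0689%), with medians of 0.91 and 0.94. Their median contrast was 0.04, and the inducible member Hspa1a had 0.47 ± 0.95.

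Immediate early genes had medians of 0.63 after surgery and 0.79 in controls for 48 h over 6 h, with 5 of 22 called higher after surgery (5% of all genes tested) and 2 in controls (0.0689%). The phosphatase gene Dusp1 was higher at 48 h by 0.95 ± 0.32 and 1.41 ± 0.31, and the transcription factor gene Klf4 by 0.61 ± 0.24 (adjusted p = 0.0940, not called) after surgery and 1.21 ± 0.24 in controls. The contrast of the AP-1 and EGR genes had intervals that hold 0: −0.24 ± 0.48 for Fos, −0.05 ± 0.32 for Jun and −0.30 ± 0.43 for Egr1. Klf2, a relative of Klf4, had −1.15 ± 0.51. The clock gene Per3 was lower at 48 h in both arms, at −0.85 ± 0.18 after surgery and −0.83 ± 0.18 in controls, and the median contrast of 14 clock genes was −0.07. For homeostatic genes the median of 48 h over 6 h was 0.57 after surgery, with 13 of 20 called higher (5% of all genes tested), and 0.35 in controls, with 0 called (0.0689%).

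**Figure D4:**
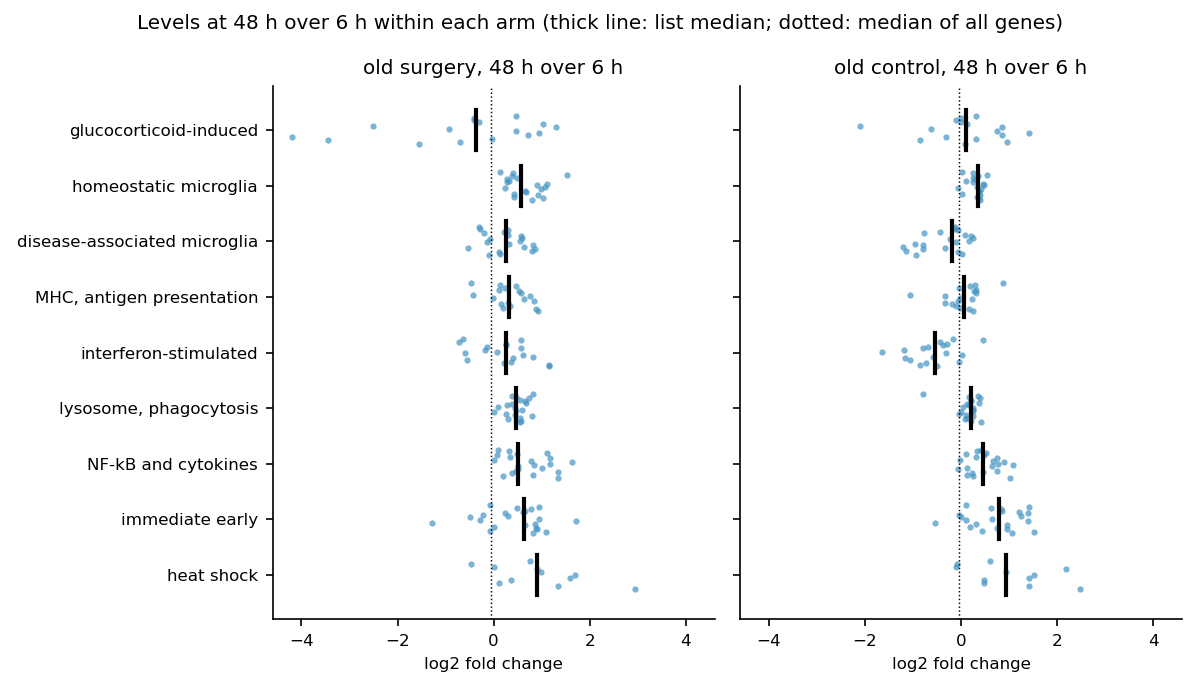
Log2 fold change of the level at 48 h over that at 6 h for the members of the same 9 lists, in old surgery and in old control libraries, with a thick line at the list median and a dotted line at the median of all 14510 genes. The heat shock medians are 0.91 after surgery and 0.94 in controls, whereas the glucocorticoid-induced medians are −0.36 after surgery and 0.10 in controls.

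The same contrast in young hippocampus (3 to 5 months, 4 libraries per group) had 0 genes passing (0%), with 1194 at an unadjusted p below 0.05 (8.23%). Replicates 1 and 4 of its 4 controls at 6 h are among the libraries with uneven low counts. Fkbp5 had −1.64 ± 0.36 in old and −1.88 (95% interval −2.88 to −0.88) in young animals, with a difference of 0.24 (−0.99 to 1.47). Tsc22d3 had −1.66 in old and −2.06 (−3.07 to −1.05) in young animals. Cltc had 1.04 in old and −0.02 in young animals, with a difference of 1.06 (0.27 to 1.84). Bmpr1a and Nudt13, named for their small p in old animals, had 1.90 and 1.79 in old and −1.09 and −1.12 in young animals. Of the 31 genes called at 6 h, 5 had an age difference at an unadjusted p below 0.05 (edgeR). They were chosen by their old 6 h effect, which is part of the age difference, so the count is not independent. For the 21 genes higher at 6 h in old animals, the young median was −1.21 and 19 were negative (49.1% of all genes tested), and for the 10 lower ones it was 0.19 with 6 positive (50.9%). The difference between the ages passed for 0 of 14510 genes (0%), with 1397 at an unadjusted p below 0.05 (9.63%), a lowest adjusted p of 0.0832, and 5 calls by DESeq2 and 0 by limma-voom. Its intervals are wide, so a difference in size between ages was not detectable rather than shown to be absent.

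In the hemisphere of the same old animals, 24 of 14144 genes passed the contrast (0.17%). Among them were 8 of the 31 genes called at 6 h in hippocampus: Fkbp5 (−2.02 ± 0.43), Tsc22d3 (−2.04 ± 0.36), Rcan1, Ddit4, Abl2, Tagap, Cyb561a3 (1.35 ± 0.31) and the model AC154912.3 within Fkbp5. These libraries are separate from the hippocampal ones but come from the same animals. In the hemisphere, replicate 6 of old surgery and replicate 7 of old control at 6 h had uneven low counts. There 8.47% and 12.2% of the values from 1 to 3 were 1. The difference between the regions, with the animal as a block, passed for 0 of 13468 genes in edgeR (0%), with a lowest adjusted p of 0.385, 556 genes at an unadjusted p below 0.05 (4.13%) and 0 in limma-voom. The contrasts of Fkbp5 and Tsc22d3 differed between hippocampus and hemisphere by 0.31 and 0.29 on the log2 scale in that fit (unadjusted p = 0.398 and 0.489). Bmpr1a, positive in hippocampus, had a contrast of −0.63 ± 0.44 in the hemisphere. Its difference between the regions was 2.40 (edgeR, unadjusted p = 0.00033, adjusted p = 0.730).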

How the data were processed

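Smart-seq2 libraries of sorted microglia were analysed from 4 deposited tables of counts, 1 per region and time. Per the file headers and values, these are expected counts per Ensembl gene, whole but unevenly stepped in 2 of the 32 old hippocampal libraries, as the authors deposited them. Per the submitters' processing notes, mm10, R 4.2.1 and DESeq2 1.36.0 were used, and for the aligner, counter, strand setting and annotation nothing is given in these sources. The tests planned for raw counts were kept. Of 54532 identifiers, 54495 matched GENCODE vM21 for names.

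All 48 hippocampal libraries of 8 groups were fitted with edgeR 4.0.16 (R 4.3.3, TMM factors, genes kept with a minimum count of 10, robust quasi-likelihood) and no covariates. Groups came from the sample labels, and calls are Benjamini-Hochberg adjusted p below 0.05 over all genes tested. SE and 95% intervals come from the fit. The scripts were tested on simulated counts. Alternatives were DESeq2 1.42.0, limma-voom 3.58.1, RLE factors, library sizes without the 15 largest models, no filter, fewer libraries, added terms and each old library left out. The region difference used 64 old libraries with the animal as a block. The depth of the old hippocampal libraries, 513243 to 1406165 counts outside the largest models, limits genes at a few CPM. Nothing says whether animals of a group came from separate litters, so p-values measure the spread between these libraries.

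Members, lists and the genes always named were chosen with earlier results of these data known. Named were the 10 genes with the smallest p in the contrast with a mean log2 CPM no lower than 2 and no predicted symbol, the genes called at 6 h, and a fixed set of 34 genes, of which Klf9 and Il1b had too few counts. Other list members, the markers and genes of the time comparison were picked after their values were seen.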

Additional observations from a re-analysis of the deposited data

Results flagged for a closer look

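Of 216 sets of values (54 named genes in 4 old groups), 19 had a library far from the rest of its group by Dixon's test on CPM. Chance alone flags about 1 in 20 if values follow a normal distribution, which CPM at low counts need not do. Among libraries after surgery at 48 h these were Kdm4b at 55.9 CPM in replicate 3, with 16.2 CPM in the nearest library, Cd180 at 52.97 CPM in replicate 8, AC154912.3 at 7.42 CPM in replicate 1 and Saa3 at 10.9 CPM in replicate 9. In controls at 48 h they were Il6st at 36.1 CPM in replicate 5, with 59.8 CPM in the nearest, Kdm4b at 7.13 CPM and Tnf at 49.9 CPM, both in replicate 7. After surgery at 6 h they were Zbed4 at 30.7 CPM in replicate 5, with 10.9 CPM in the nearest, and Apoe at 441 CPM in replicate 2.

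In controls at 6 h there were 10. Replicate 8 stood apart for Bmpr1a at 10.04 CPM, Bmf at 44.7 CPM and Jun at 215.0 CPM, the lowest of its group, with 427 CPM in the nearest. Replicate 6 stood apart for Ppp1r21 at 6.99 CPM, again a low value, for Kdm4b at 58.8 CPM, with 11.3 CPM in the nearest, and for Clec7a at 29.6 CPM. Replicate 1 had Cyb561a3 at 51.8 CPM and Trpv4 at 7.06 CPM, replicate 5 had Abl2 at 7.98 CPM and replicate 3 had Pik3ip1 at 7.58 CPM. Leaving out any 1 library kept the sign of the contrast for Cyb561a3 (1.34 to 1.63), Il6st (1.37 to 1.60), Ppp1r21 (−1.52 to −1.33) and Kdm4b (2.17 to 3.40).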

How the results depend on the processing

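The contrast gave 0 calls in most alternatives and 8 with DESeq2, 5 with the 4 old groups alone and 1 with limma-voom. The 6 h effect gave 113 with DESeq2, 51 with limma-voom and 17 without the 4 libraries with uneven low counts. It gave 0 with old animals inside the young sort span and 6 with those outside it. That span is sort numbers 41 to 54 at 6 h and 75 to 90 at 48 h. Inside it at 6 h were old surgery replicates 1, 2 and 3 and control replicates 2, 3 and 4. At 48 h they were surgery replicates 4, 5 and 6 and control replicates 3, 4, 5 and 6. Fewer old libraries and the sort period cannot be told apart in these counts. The 48 h effect gave 0 in every alternative run. The control time difference gave 74 with DESeq2, 5 with no filter, 7 with limma-voom, 7 with the 4 old groups alone, 0 inside and 5 outside the young sort span and 1 with the span as a term. The surgery time difference gave 797 with no filter, 354 without the libraries with uneven low counts, 14 inside and 117 outside the span and 24 with the span as a term. The age difference gave 5 with DESeq2 and the region difference 62 with no filter. With 1 library left out, the counts were 0 to 1 for the contrast, 0 to 0 for the 48 h effect, 16 to 52 for the 6 h effect, 4 to 19 for the control and 819 to 2137 for the surgery time difference, and 0 to 1 for the age difference (1 without old surgery at 48 h replicate 8, or at 6 h replicate 6).

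Replicate numbers in the labels did not pair the libraries: of 15 same-numbered surgery and control pairs, 2 had deviations correlated above 0.1, with a range of −0.12 to 0.24, and 7 of 30 libraries correlated best with their own number. With the replicate number as a block the calls were 8 for the control and 927 for the surgery time difference, 25 for the 6 h effect and 0 for the 48 h effect and the contrast.

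The sign of the contrast turned with old animals inside the young sort span for Polr2a (−0.23), Abl2 (0.75), Tagap (0.014), Per1 (0.048), Sgk1 (1.16), Apoe (−0.071), Socs3 (0.53), Cdkn1a (−0.019), Fos (0.81), Jun (0.56), Egr1 (0.11), Cst7 (−0.64) and Hspa8 (0.14). It turned outside the span for Tmem119 (−0.068), with the replicate block for Bmf (−0.040) and with no filter for Jun (0.046) and Hspa8 (0.032). With 1 library left out it ranged from −0.053 to 0.98 for Bmf, −0.145 to 0.066 for Hspa8, −0.23 to 0.068 for Jun and −0.25 to 0.022 for Sgk1. The sets inside and outside the span hold fewer old libraries than the full set, and the cause of the sign changes was not tested. At these depths a difference in genes at a few CPM was often not detectable.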
